A study of Bursaphelenchus xylophilus with 12 samples.

Results

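The 242 genes described here had a lower relative level of messenger RNA at 24 h than at 12 h, with or without emamectin benzoate. At 24 h their mean level was higher with the agent than without. They are gene IDs of the pine wood nematode, Bursaphelenchus xylophilus, and were chosen by their own measured values from the 18036 IDs of the table, of which 17704 start with BXY. The rule kept BXY IDs with a mean of 5 to under 800 FPKM over all 12 libraries, which left 10333. FPKM, a fragment count divided by gene length and by the size of the library, is a level per length. Every difference below is on the log2(FPKM + 1) scale, on which the change of scarce genes comes out too small. The rule then asked for a 12 h spread (the square root of the mean of the EB12 and EC12 variances) below 0.6, which left 9310 IDs, and for a fall of at least 1 log2 unit from 12 h to 24 h without the agent, which left 884. Last, it asked for a fall of at least 0.5 with the agent and for a level at 24 h at least 0.6 higher with the agent. All of these differences therefore describe the genes that they selected. Standard errors and counts of genes past a threshold are given for them below as description, beside the share of all genes tested, and not as evidence.

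Adults of strain NB-6 had been raised on the fungus Botrytis cinerea. In the groups EB12 and EB24 they were immersed at 25 °C in emamectin benzoate (EB) at 0.1 mg/L for 12 h or 24 h. The groups EC12 and EC24 are the matching controls, which received the adjuvants at equal concentration for 12 h or 24 h, namely octylphenol polyoxyethylene-10 and n-butyl alcohol. The titles write EC where the treatment text writes ON, and EC was read as the adjuvant control because no other group is left for it. Each of the 3 libraries per group pooled 200 adults, and all worms had been separated from the plates with a Baermann funnel and spun down. Worms before immersion or in water alone were not analysed here, so a change between 12 h and 24 h includes whatever time in the liquid did to the animals. Only the 12 h titles carry a group number, 3 for EB12 and 2 for EC12, whose meaning no source gives. If it marks a batch, that batch cannot be told apart from time, nor from the agent at 12 h and so in the interaction.

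The pine wood nematode causes pine wilt disease and is carried from tree to tree by longhorn beetles of the genus Monochamus. It feeds on living plant cells and on fungi through a stylet. Emamectin benzoate is an avermectin, a class that holds glutamate-gated chloride channels of invertebrate nerve and muscle open and so paralyses worms, and it is injected into pine trunks for protection. The amount of a messenger RNA at any time reflects both its synthesis and its decay, and a table of steady levels does not separate them. The table pairs no ID with a name, so which proteins the genes encode, and any sign of tissue, was not analysed here, and the label "adult" could not be checked against marker genes.

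The label of a blunted fall held for most of these genes but not all. In 234 of the 242 the fall on the log2 scale was smaller with EB than with the adjuvant alone. In the other 8 it was at least as large with EB, and these genes ended higher in EB24 than in EC24 after starting higher in EB12. The ratio of the falls (EB over EC) had a median of 0.525, and the middle 50% of the genes lay between 0.449 and 0.621. It was below 0.5 in 107 genes, from 0.5 to 0.75 in 112 and from 0.75 to below 1 in 15.

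**Figure D1:**
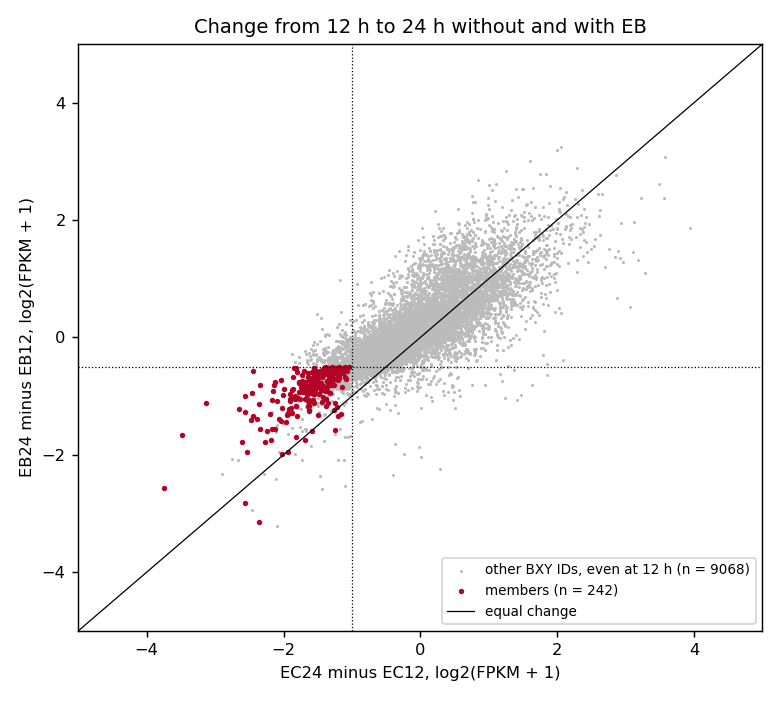
Change from 12 h to 24 h in the adjuvant libraries (x axis) and in the EB libraries (y axis), both as differences of group means of log2(FPKM + 1), for the 9310 BXY IDs of the FPKM range with a 12 h spread below 0.6. The 242 genes (red) lie left of and below the dotted thresholds, and 234 of them lie above the line of equal change.

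In level, the genes kept a median of 31.9% of their EC12 mean in EC24 (middle 50% of genes 26.8% to 36.9%) and 55.6% of their EB12 mean in EB24 (46.2% to 63.2%). At 24 h the EB mean was a median of 1.78 times the adjuvant mean, and the ratio ran from 1.52 to 6.02. Together the 242 genes held 3.28% ± 0.507 (SD, n = 3) of all FPKM in EC12 and 3.44% ± 0.188 in EB12. They held 0.936% ± 0.0122 in EC24 and 1.72% ± 0.0259 in EB24. No EB24 library, at 1.69% to 1.74%, came near an EC24 library, at 0.928% to 0.950%. The 12 h groups overlapped, at 2.95% to 3.86% in EC12 and 3.29% to 3.65% in EB12. The rule required a higher mean in EB24 than in EC24 for every gene. It set no threshold on EB12 against EC12, so nothing is read from this contrast. In such bulk samples fewer cells of a type and less RNA per cell cannot be told apart.

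**Figure D2:**
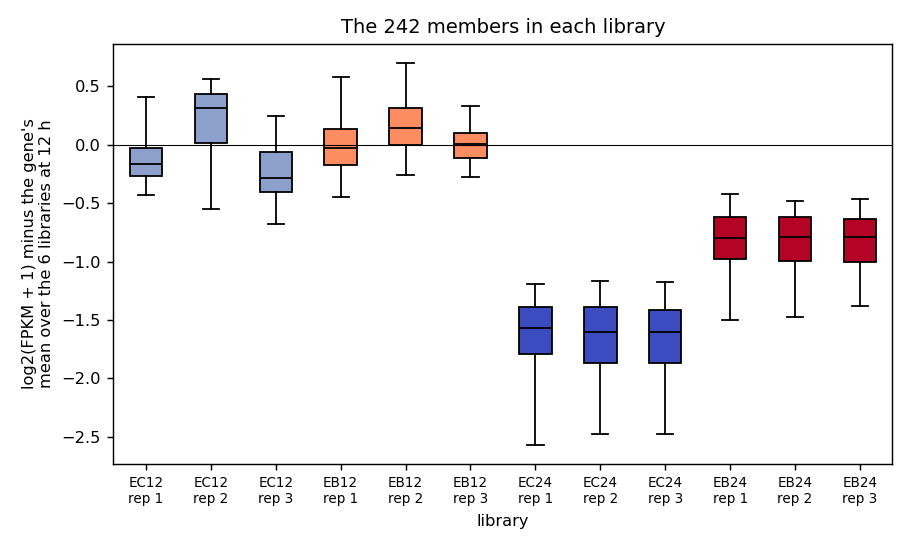
Level of the 242 genes in each of the 12 libraries, as log2(FPKM + 1) minus the gene's mean over the 6 libraries at 12 h. Boxes span the middle 50% of the genes with the median as a line, and whiskers reach from the 5th to the 95th percentile. The medians lie at -1.57 to -1.60 in the EC24 libraries and at -0.79 to -0.80 in the EB24 libraries.

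The difference between EB24 and EC24 had a median of 0.78 and reached at least 1 in 39 genes, lay from 0.8 to below 1 in 66 and below 0.8 in 137. The median fall from EC12 to EC24 was 1.55 log2 units (a log2 difference of -1.55), with 35 genes at -2 or lower and 3 at -3 or lower. The median difference from EB12 to EB24 was -0.82, with 70 genes at -1 or lower and 3 at -2 or lower. Genes with steeper falls in the controls also stood further above them at 24 h. The 35 genes at -2 or lower had a median EB24 minus EC24 difference of 0.99, against 0.81 for the 97 genes between -2 and -1.5 and 0.71 for the 110 above -1.5, and EC24 enters both measures.

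All 242 genes passed the expression filter, and limma, fitted over all 12 libraries and 13768 genes (Benjamini-Hochberg adjusted p under 0.05, two-sided), called 217 of them higher in EB24 than in EC24, against 14.5% of all genes tested. The other 25 missed that threshold. The fit called all 242 lower in EC24 than in EC12 (background 25.9%) and 228 lower in EB24 than in EB12 (background 13.1%). The 3 EB24 libraries lay above the 3 EC24 libraries without overlap in 240 genes (background 40.4%), the exceptions being BXY_0295800 and BXY_0622900. The same held for 541 of the 642 other IDs that met the limit on spread and fell by at least 1 in the controls. EC24 lay wholly below EC12 in 242 genes (background 31%) and EB24 wholly below EB12 in 234 (background 19.2%). The rule used these contrasts, so nothing is read from the counts. The 24 h libraries fitted alone called all 242 higher with EB (background 35.9%). Leaving out 1 library at 24 h lowered the 217 to 139, 120 and 119 without EC24 replicates 1, 2 and 3 and to 122, 110 and 117 without EB24 replicates 1, 2 and 3. The share of all genes called higher fell with it, to 7.63%, 6.28% and 6.03% and to 6.53%, 5.21% and 5.73% in the same order.

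The interaction of agent and time, which is the difference between the falls with and without EB, passed the same threshold in fewer genes, 59 of the 242, all positive (background 6.46%). Its median was 0.71 over these genes and 0.21 over all genes tested. The count fell to 13 with median ratio scaling (background 1.48%) and to 34 with quantile normalization (4.02%). It rose to 100 when EB12 replicate 2 was left out (background 13.1%) and fell to 21 for EB12 replicate 3 (2.30%). Leaving out any 1 of the 24 h libraries gave 9 to 23 (0.893% to 2.16%). In these settings the share of all genes called moved in the same direction as the count. The 2 moved in opposite directions without EC12 replicate 3 (82 genes, background 4.15%) and without EB12 replicate 1 (49 genes, 6.83%). They also did so with pseudocounts of 0.5 (60 genes, 6.25%) and 0.1 (62 genes, 6.03%). Positive estimates numbered 234 in the deposited values, 229 once scaled by median ratios and 231 once quantile normalized.

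The scaling moved the size of the difference. Its sign was set by the rule, which kept only differences of at least 0.6. The shifts between scalings were small beside that threshold, so nothing is read from the sign. The median of all genes for EB24 minus EC24 stood at 0.14 in the deposited values, 0.06 once scaled by median ratios and 0.03 once quantile normalized, and that of the 242 genes at 0.78, 0.69 and 0.68. Relative to all genes the 242 were thus higher by 0.64, 0.63 and 0.64. In each of the 3 scalings all 242 differences were positive, the lowest being 0.60, 0.51 and 0.46. The fall with EB moved more: its median was -0.82, -1.0 and -0.94, so that the median ratio of the falls went from 0.525 to 0.634 and 0.591.

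The largest difference at 24 h belonged to BXY_1563600. It read 322.57, 230.55 and 188.35 FPKM in EC12 and 387.16, 181.57 and 251.47 FPKM in EB12. By 24 h it had dropped to 25.55, 28.12 and 26.47 FPKM in EC24 and to 121.46, 120.75 and 117.8 FPKM in EB24. The 12 h groups overlapped while the 24 h groups lay far apart with little scatter. Its log2 difference of EB24 from EC24 was 2.13 ± 0.24 (limma standard error, as in all ± values on the log2 scale below). These errors rest on a spread shared by all 12 libraries. The 12 h libraries varied more, so the errors tend to be too small at 12 h and too large at 24 h. The change of BXY_1563600 over time was -3.13 in the controls and -1.11 with EB.

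BXY_0640100 was among the most abundant of the 242 genes as well as second by difference. Its FPKM were 760.82, 704.56 and 657.95 in EC12 and 735.58, 652.0 and 912.81 in EB12. They were 61.37, 63.84 and 60.51 in EC24 and 232.2, 244.29 and 239.25 in EB24. All EB24 libraries lay above all EC24 libraries and below every 12 h library. The log2 difference at 24 h was 1.93 ± 0.12, and the change over time -3.49 in the controls and -1.67 with EB.

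The next genes by difference were far less abundant. BXY_1195300 read 6.04, 6.41 and 15.01 FPKM in EC12, 22.01, 17.68 and 13.44 in EB12, then 1.18, 1.36 and 0.69 in EC24 and 7.09, 7.21 and 5.15 in EB24. The EB24 values thus overlapped those of EC12, and the gene already stood 0.96 higher in EB12 than in EC12 on the log2 scale, with overlapping libraries. Its difference at 24 h was 1.85 ± 0.30. BXY_0405900 read 13.31, 33.28 and 16.82 FPKM in EC12, 28.53, 25.66 and 17.69 in EB12, then 1.89, 2.75 and 2.95 in EC24 and 11.22, 11.88 and 10.7 in EB24. The 12 h groups overlapped and the 24 h groups did not, with a difference of 1.81 ± 0.29.

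The 3 most abundant genes had smaller differences at 24 h. BXY_1241200 read 924.94, 1495.11 and 830.31 FPKM in EC12, 1104.82, 987.24 and 1099.23 in EB12, then 336.02, 354.47 and 369.32 in EC24 and 622.12, 538.79 and 587.6 in EB24. BXY_1237900 read 593.04, 1137.12 and 576.41 FPKM in EC12, 792.44, 713.06 and 778.56 in EB12, then 218.48, 228.54 and 229.6 in EC24 and 379.84, 358.68 and 362.35 in EB24. In both, replicate 2 was far above the other EC12 libraries, while EB12 was even. Their log2 differences at 24 h were 0.72 ± 0.18 for BXY_1241200 and 0.70 ± 0.20 for BXY_1237900. BXY_0792600 read 517.74, 754.7 and 582.78 FPKM in EC12, 849.1, 923.93 and 603.91 in EB12, then 227.16, 240.42 and 241.68 in EC24 and 458.17, 492.82 and 450.67 in EB24. Its EB24 libraries were all below its 12 h libraries and all above EC24, with a difference of 0.98 ± 0.16.

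**Figure D3:**
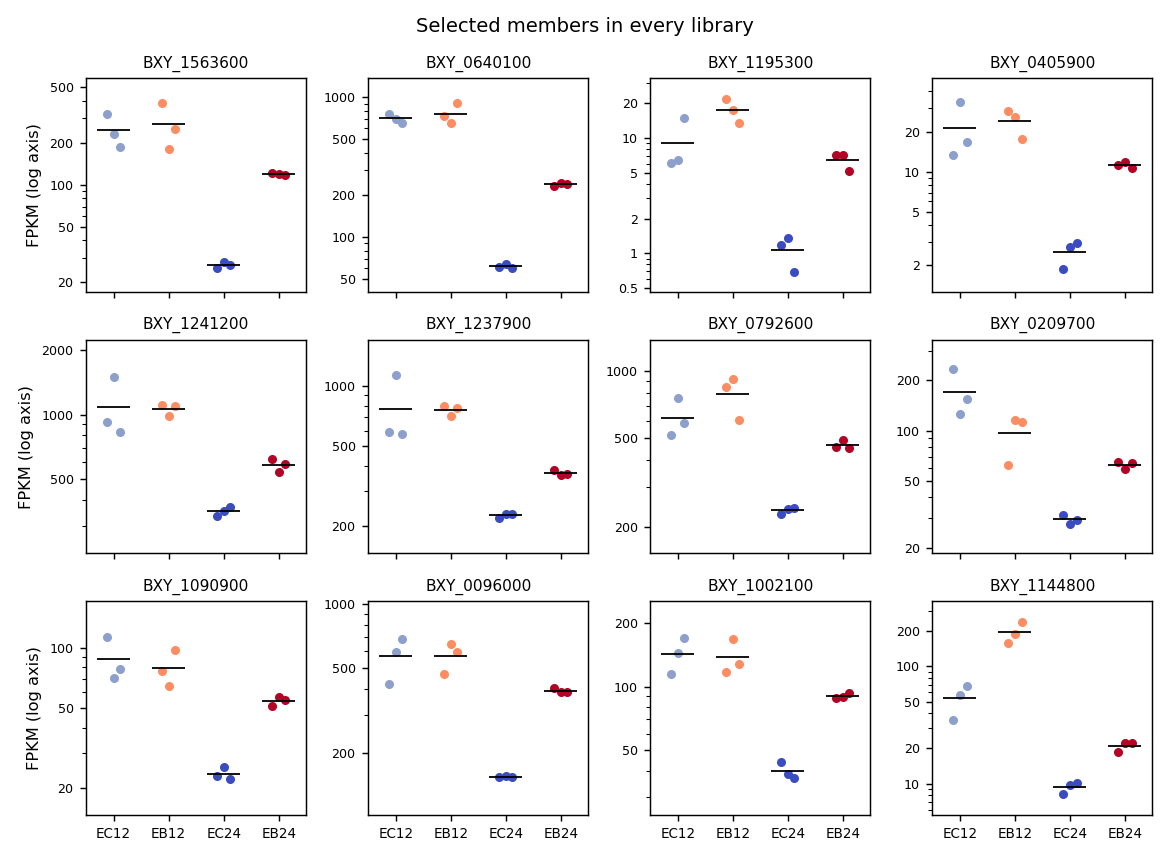
FPKM (log axis) of 12 of the 242 genes in the 3 libraries of each group, with the group mean as a line. The panels hold the genes with the largest difference at 24 h, the most abundant, those with the smallest ratio of falls, and BXY_1144800 with the largest ratio. In all 12 the EB24 points lie above the EC24 points.

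The smallest ratio of falls belonged to BXY_0209700, whose level dropped steeply in the controls and by 0.57 log2 units with EB. It read 232.49, 125.71 and 155.02 FPKM in EC12 and 31.53, 27.73 and 29.48 in EC24. With EB it read 62.52, 116.14 and 112.41 FPKM at 12 h and 65.03, 59.13 and 63.74 at 24 h, so that the EB groups overlapped at replicate 1 of EB12. The ratio was 0.234 and the interaction 1.88. Already at 12 h the gene was lower with EB, with a difference of EB12 from EC12 of -0.82, the lowest of the 242 genes.

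In the next 3 genes by ratio the 12 h groups lay close together. BXY_1090900 read 113.52, 71.05 and 78.5 FPKM in EC12, 76.32, 64.6 and 97.31 in EB12, then 23.02, 25.69 and 22.2 in EC24 and 51.38, 57.06 and 55.3 in EB24. BXY_0096000 read 423.41, 594.8 and 688.41 FPKM in EC12, 468.59, 647.54 and 593.72 in EB12, then 153.36, 155.19 and 154.29 in EC24 and 405.16, 384.82 and 386.8 in EB24. BXY_1002100 read 114.71, 144.43 and 168.85 FPKM in EC12, 116.84, 167.37 and 128.41 in EB12, then 43.83, 38.52 and 37.18 in EC24 and 88.23, 89.12 and 92.76 in EB24. In each of them the EC24 libraries lay well below the EB24 libraries, which were in turn below every EB12 library. The ratios of the falls were 0.282 for BXY_1090900, 0.284 for BXY_0096000 and 0.327 for BXY_1002100. The interactions were 1.31, 1.32 and 1.21 log2 units in the same order.

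Over all 6 libraries at 12 h, most of the 242 genes stood at similar levels with and without EB. The median difference of EB12 from EC12 was 0.07 (-0.05 over all genes tested), with 191 genes between -0.3 and 0.3, 43 at 0.3 or above and 8 at -0.3 or below. limma called 3 of them higher in EB12 (background 0.0726%) and none in the 12 h libraries fitted alone (background 0%), where 20 (8.26%) had an unadjusted p under 0.05, against 4.11% of all genes tested. The 3 calls became 6 when EC12 replicate 2 was left out (background 0.203%), 5 for EB12 replicate 1 (0.131%) and 1 for EB12 replicate 3 (0.0218%). The median difference was 0.001, 0.21 and -0.05 without EC12 replicates 1, 2 and 3 (-0.04, -0.05 and -0.07 over all genes tested). Without EC12 replicate 2, 87 genes (36.0%) had an unadjusted limma p under 0.05, against 18.2% of all genes tested. With all 12 libraries it was 28 genes (11.6%), against 12.2%. EB12 lay wholly above EC12 in 13 genes (background 2.43%) and wholly below it in 4 (background 7.41%). This difference follows by arithmetic from the 3 differences used in the choice, so it is a description.

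The 3 genes called at 12 h were BXY_1144800, BXY_0494500 and BXY_1761700, and they had the largest ratios of falls. BXY_1144800 read 35.02, 57.18 and 68.16 FPKM in EC12 but 158.63, 188.56 and 240.37 in EB12. At 24 h it read 8.12, 9.7 and 10.09 FPKM in EC24 and 18.44, 22.14 and 22.06 in EB24. BXY_1144800 was thus higher with EB at both times, by 1.89 ± 0.22 at 12 h and 1.09 ± 0.22 at 24 h. With each time fitted alone its standard errors were 0.26 at 12 h and 0.11 at 24 h. Its fall with EB was the larger one, with a ratio of 1.34. BXY_0494500 read 396.32, 391.32 and 371.09 FPKM in EC12, 792.9, 714.89 and 727.53 in EB12, then 144.8, 166.04 and 178.41 in EC24 and 269.45, 245.96 and 234.06 in EB24. The 4 groups of this gene did not overlap at all, and its differences were 0.95 ± 0.10 at 12 h and 0.62 ± 0.10 at 24 h. BXY_1761700 read 155.5, 110.34 and 153.93 FPKM in EC12, 386.08, 249.31 and 306.68 in EB12, then 53.37, 64.05 and 67.5 in EC24 and 121.21, 130.12 and 120.26 in EB24. Its EB24 libraries lay within the range of EC12, and its ratio of falls was 1.13.

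In 16 genes EB12 was at least 0.6 above EC12, and their median ratio of falls was 0.997. BXY_0209200 read 60.0, 40.95 and 43.36 FPKM in EC12, 158.93, 59.08 and 120.36 in EB12, then 8.1, 7.02 and 6.57 in EC24 and 15.07, 13.52 and 13.19 in EB24. It fell steeply in both arms, by 2.56 and by 2.82 log2 units, and EB12 replicate 2 lay just below EC12 replicate 1. BXY_0622900 read 6.88, 5.68 and 9.17 FPKM in EC12, 9.28, 19.82 and 15.58 in EB12, then 2.36, 1.63 and 4.0 in EC24 and 3.47, 6.33 and 5.59 in EB24. Its 24 h groups overlapped, with a difference of 0.76 ± 0.31. BXY_0165400 combined an EB12 excess of 0.82 with a difference at 24 h of 1.68.

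Of the 8 genes at -0.3 or below at 12 h the median ratio of falls was 0.356. BXY_0707800 read 134.77, 58.15 and 87.3 FPKM in EC12, 41.05, 65.43 and 69.4 in EB12, then 15.3, 15.35 and 18.49 in EC24 and 28.86, 24.17 and 23.62 in EB24. BXY_1721700 read 16.54, 12.65 and 10.57 FPKM in EC12, 7.86, 13.38 and 5.38 in EB12, then 2.81, 2.8 and 1.77 in EC24 and 4.44, 4.64 and 4.93 in EB24. In both the 12 h groups overlapped while EB24 lay wholly above EC24, by 0.61 ± 0.27 and 0.73 ± 0.27.

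The genes also differed in how even their 12 h libraries were. Apart from BXY_0494500, whose 12 h spread of 0.0667 was the lowest, the most even were BXY_1018500 and BXY_1758800. BXY_1018500 read 27.27, 25.45 and 31.58 FPKM in EC12, 23.09, 22.23 and 21.96 in EB12, then 6.54, 7.54 and 6.91 in EC24 and 11.92, 11.65 and 11.54 in EB24, with a difference at 24 h of 0.67 ± 0.12. BXY_1758800 read 47.53, 45.36 and 56.2 FPKM in EC12, 51.7, 55.35 and 61.89 in EB12, then 14.21, 14.34 and 14.19 in EC24 and 29.69, 29.53 and 30.16 in EB24, with a difference of 1.01 ± 0.11. The groups at 24 h were tight in both.

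At the uneven end stood BXY_0478000, BXY_1059900 and BXY_0591500. BXY_0478000 read 15.3, 6.58 and 4.82 FPKM in EC12, 9.14, 6.58 and 10.83 in EB12, then 0.62, 0.47 and 0.86 in EC24 and 2.81, 3.02 and 2.68 in EB24. BXY_1059900 read 98.73, 182.43 and 69.8 FPKM in EC12, 146.01, 173.21 and 93.58 in EB12, then 40.73, 41.2 and 40.28 in EC24 and 57.97, 70.16 and 65.07 in EB24. BXY_0591500 read 25.94, 42.15 and 16.6 FPKM in EC12, 53.1, 28.94 and 28.41 in EB12, then 6.77, 4.57 and 7.78 in EC24 and 16.51, 12.48 and 15.21 in EB24. In each the 12 h libraries differed by more than 1.5 times within both groups, while the 24 h groups did not overlap.

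Across the FPKM range the genes made up a larger share of the abundant IDs than of the scarce ones. They were 56 of 3540 IDs (1.58%) from 5 to under 20 FPKM, 73 of 3046 (2.40%) from 20 to under 50, 86 of 3121 (2.76%) from 50 to under 200 and 27 of 626 (4.31%) from 200 to under 800. The pseudocount and the limit on spread both act on low genes, and their part in these shares was not tested. The median ratio of falls in these 4 classes, in the same order, was 0.557, 0.508, 0.50 and 0.539.

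The 12 h libraries varied more than the 24 h libraries. The median SD of the 242 genes within a group was 0.36 log2 units in EC12, 0.20 in EB12, then 0.10 in EC24 and 0.08 in EB24. Over the 10333 IDs of the FPKM range the medians were 0.24, 0.25, 0.10 and 0.08. The control group at 12 h was thus the one in which these genes scattered most.

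Within EC12, replicate 2 stood highest for most of these genes. The genes' median deviation from the EC12 mean was -0.12, 0.32 and -0.23 log2 units in replicates 1, 2 and 3, and replicate 2 held the highest EC12 value in 161 genes (66.5%). The other BXY IDs that met the limit on spread and fell by at least 1 in the controls had medians of -0.16, 0.18 and -0.10, and the other IDs of the FPKM range lay between -0.02 and -0.01 in all 3. Replicate 2 held the highest EC12 value in 55.3% of these other falling IDs and in 28.6% of the rest of the range. In EB12 the medians were -0.05, 0.10 and -0.03, and replicate 2 was highest in 140 genes (57.9%), against 63.7% of the other falling IDs and 46.2% of the rest of the range. Without EC12 replicate 2 the rule kept 232 genes, 223 of them among the 242. Over the original 242 genes the median change in the controls was then -1.40 and the median ratio of falls 0.577.

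**Figure D4:**
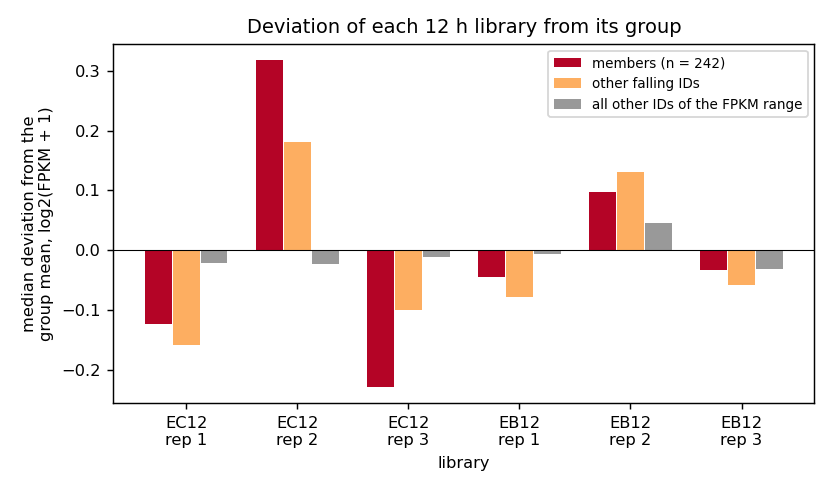
Deviation of the 242 genes, of the other falling IDs and of the rest of the FPKM range from their group mean of log2(FPKM + 1) in the 6 libraries at 12 h. Among the 242 genes the median is highest in replicate 2 of EC12, at 0.32, and lies between -0.23 and 0.10 in the other 5 libraries.

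The genes did not all follow that library. The leading axis of their 12 h residuals held 49.2% of the variance. Along it 176 genes lay on one side, with a median of 0.41 in EC12 replicate 2. The other 66 lay on the opposite side, with medians of -0.32 in EB12 replicate 1 and 0.31 in EB12 replicate 2. The other IDs of the range, taken separately, had a leading axis of their own, which held 57.4% of their variance.

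The same measures were also read in libraries that took no part in a choice. At 24 h the libraries of a group differed little (median SD of the 242 genes 0.10 in EC24 and 0.08 in EB24), and replicates may be technical. A difference of at least 0.6 at 24 h in 2 libraries was therefore likely to recur in the third, so its return is not independent evidence. The rule was applied to 2 libraries of each group and the third library of each group was then read, which leaves 1 library a group and allows no test. Without replicates 1, 2 and 3 the rule chose 285, 216 and 228 genes, of which 194, 174 and 185 were among the 242. In the libraries left out, EB24 exceeded EC24 by a median of 0.71, 0.79 and 0.80, against 0.79, 0.78 and 0.77 in the libraries that chose. The medians of the whole FPKM range in the libraries left out were 0.09, 0.17 and 0.18. EB24 was above EC24 in 284 of 285, 214 of 216 and 228 of 228 chosen genes, against 58.9%, 66.4% and 66.5% of the range.

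The 12 h to 24 h changes were less even between the libraries left out. In the controls their medians were -1.31, -1.84 and -1.36, and with EB -0.65, -0.96 and -0.77. The largest fall in the controls came where EC12 replicate 2 was the library read. With EB the fall was smaller than without, or was replaced by a rise, in 96.8%, 86.6% and 87.7% of the chosen genes. The same share over the FPKM range is not given here, so nothing is read from these percentages. Over all genes tested the interaction, fitted to all 12 libraries, also had a positive median, 0.21. All 3 thresholds on the differences were met again by 38.6%, 63.0% and 54.4% of the chosen genes, against 2.23%, 3.45% and 2.43% of the range.

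**Figure D5:**
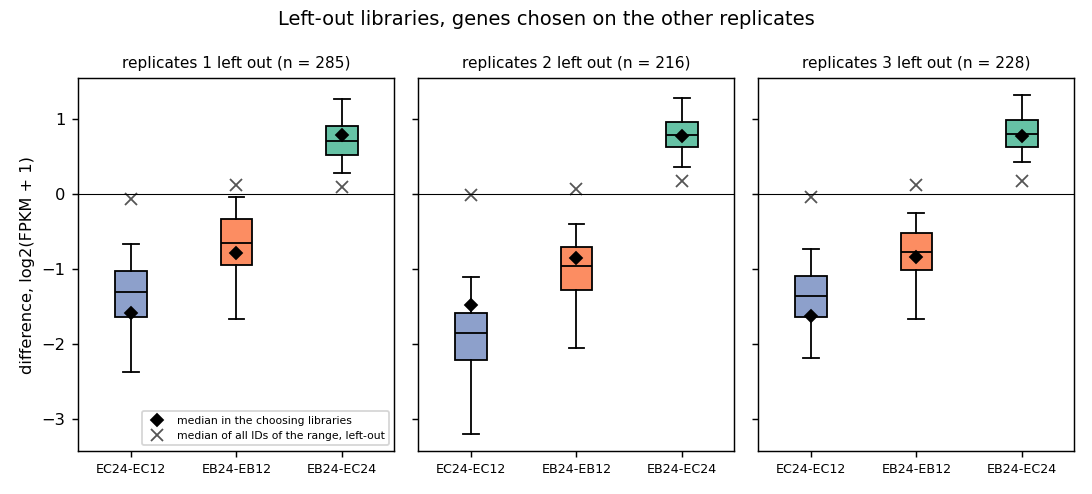
Log2 differences in the 4 libraries that did not take part in choosing the genes, for each replicate number left out, beside the same in the whole FPKM range. The median of EB24 minus EC24 in the chosen genes is 0.71, 0.79 and 0.80, and 0.09, 0.17 and 0.18 in the range.

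Genes just inside and just outside the thresholds had nearly the same values. For the fall in the controls BXY_1148900 was kept at a log2 change of -1.05 and BXY_0451500 missed at -0.996. For the fall with EB BXY_0765600 was kept at -0.501 and BXY_1114100 missed at -0.494. For the difference at 24 h BXY_1377100 was kept at 0.602 and BXY_1154700 missed at 0.597. Moving 1 threshold by 0.1 gave 238 or 247 genes for the controls' fall, 191 or 288 for the fall with EB, 168 or 320 for the difference at 24 h and 219 or 252 for the spread.

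Among the 642 other IDs that met the limit on spread and fell by at least 1 in the controls, 368 also fell by at least 0.5 with EB but differed by less than 0.6 at 24 h. Their median ratio of falls was 0.619 and their median difference at 24 h 0.38. The 368 were less abundant, with a median mean level of 22.4 FPKM against 45.9 FPKM for the 242 genes. In the remaining 274 the change with EB was above -0.5, with a median of -0.34. Their median level was 48.1 FPKM and their median difference at 24 h 0.78. The thresholds set the differences between these sets, which are not tested.

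Some of the genes ran closely together over all 12 libraries. In 99 pairs the levels differed by less than 0.3 log2 units in every library. The rule chose genes of alike pattern, and such pairs were not counted among other IDs, so nothing is read from the count. The closest pair was BXY_0158600 and BXY_0250900, whose levels differed by at most 0.147 (r = 0.997 over 12 libraries, which share the 4 group means), followed by BXY_1002100 and BXY_1646600 at 0.162. Consecutive IDs, which were not counted in other sets of genes, made up 9 pairs with 18 of the genes. Among them BXY_0096000 and BXY_0096100 had differences at 24 h of 1.34 and 0.86, and BXY_1121700 and BXY_1121800 of 1.23 and 0.95. The last pair was also higher in EB12 than in EC12, by 0.66 and 0.93. Whether consecutive IDs are neighbours on the genome was not analysed here, and this table does not separate reads of genes that overlap or are nearly identical.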

How the data were processed

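Messenger RNA of adult worms was sequenced on an Illumina instrument, per the labels, in 12 libraries, 3 in each of 4 groups taken from the titles. The deposited table holds the authors' FPKM per gene ID. The submitters' processing notes name TopHat2 2.1.1. The genome build, annotation and counting tool were not given in the sources used here. The depth in reads is unknown, so no counting interval is given. FPKM is relative to each library, whose sums averaged 831384 in EC12 and 865643 in EB12, against 939269 in EC24 and 924230 in EB24.

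Values were analysed as log2(FPKM + 1). The rule was applied to group means. limma 3.58.1 (R 4.3.3) was fitted with 1 mean per group to the 13768 IDs with at least 1 FPKM in at least 3 libraries, with a mean-variance trend, and p-values were adjusted by Benjamini-Hochberg over all of them (two-sided, threshold 0.05). The scripts were tested on simulated data. Both other pseudocounts (0.5 and 0.1), other filters, median ratio and quantile scaling, other limma settings, a replicate block, fits of the compared libraries alone, shifted thresholds and the omission of each library were tried.

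The 242 genes, the lists and the tests were chosen with earlier results of these data known. Genes named in the text are the 4 with the largest difference at 24 h, the 4 most abundant, the 4 with the lowest and the 4 with the highest ratio of falls, the 3 at each end of EB12 minus EC12 and of the 12 h spread, and those nearest each threshold. BXY_0295800, BXY_0165400, the close pairs and the consecutive IDs were named after their values were seen. The planned lists of gene families could not be filled, because the table describes no ID. The labels do not say that replicates came from separate cultures, so their spread may be technical.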

Additional observations from a re-analysis of the deposited data

Results flagged for a closer look

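The difference between the falls with and without EB was tested by limma as the interaction of agent and time. It passed the adjusted threshold in 59 of the 242 genes (background 6.46%). Both falls had been used to choose the genes, so these are values and no independent evidence. Among the genes named by rule the interaction was 2.02 log2 units in BXY_1563600, 1.88 in BXY_0209700, 1.83 in BXY_0640100 and 1.56 in BXY_0405900. It was 1.32 in BXY_0096000, 1.31 in BXY_1090900 and 1.21 in BXY_1002100. It was 0.98 in BXY_1018500, 0.83 in BXY_1758800, 0.82 in BXY_0483200 and 0.69 in BXY_0765600. In each of these genes the controls fell further than the EB libraries.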

How the results depend on the processing

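The number of genes kept by the rule was 242 as reported and 217 to 271 when 1 library was left out, with 217 genes (198 shared) without EB12 replicate 2. Pseudocounts of 0.5 and 0.1 gave 267 and 286, median ratio scaling 259 (178 shared) and quantile normalization 209 (170 shared). The median ratio of falls over the original 242 genes, 0.525, moved to 0.634 and 0.591 under those 2 scalings and was 0.494 to 0.577 with 1 library left out. In genes chosen on 2 replicates the median EB24 minus EC24 difference in the libraries left out was 0.709 to 0.803.

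Calls of EB24 above EC24, 217 as reported, were 110 to 226 with 1 library left out, fewest without a 24 h library. They were 153 under median ratio scaling, 182 under quantile normalization and 176 with no filter. The interaction count, 59 (background of positive calls 6.46%), was 9 to 100 with 1 library left out (0.893% to 13.1%). It was 13 under median ratio scaling (1.48%), 34 under quantile normalization (4.02%) and 37 with no filter (4.27%). Calls of EB12 above EC12, 3 as reported (background 0.0726%), were 1 to 6 with 1 library left out (0.0218% to 0.966%). They were 1 with no filter (0.0222%), 0 with weights per time point (0.0145%) and 0 in the 12 h libraries alone (0%). All 242 genes were called lower in EC24 than in EC12 under every alternative run, beside 2964 to 3905 of all genes tested. The 228 calls of EB24 below EB12 stood beside 1808 of the 13768 genes tested. They ranged from 193 without EB24 replicate 2 (1172 of 13768) to 241 under median ratio scaling (2913 of 13768).

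With a replicate block limma called 208 of the genes higher in EB24 than in EC24 (background 13.5%). It called 242 lower in EC24 than in EC12 (3483 of 13768 genes tested) and 230 lower in EB24 than in EB12 (1761 of 13768). It called 2 higher in EB12 than in EC12 (0.0363%) and 56 for the interaction. Of these 56, 55 were positive (background 5.54%) and 1, BXY_1144800 at -0.80, was negative. Same-numbered EB24 and EC24 libraries deviated together little (r = 0.04, 0.04 and -0.02 over 13768 genes), those of EB12 and EC12 unevenly (0.34, 0.15 and -0.05). Across numbers the EB12 and EC12 libraries reached stronger values. They ran from -0.57 (EB12 replicate 1 with EC12 replicate 3) to 0.53 (EB12 replicate 2 with EC12 replicate 3). Not every library correlated best with its own number, so the numbers were not taken to pair the samples. None of 660 values of EB24 minus EC24 for 30 named genes reversed sign. The rule required at least 0.6 in each gene. Several settings, such as leaving out a 12 h library, cannot change the estimate, so nothing is read from this. Of the 660 values, 58 lost the call and 21 gained it. The cause of these shifts was not tested.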

Other observations

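Above the FPKM range, 3 BXY IDs met the other conditions of the rule, which fixes the order of their groups at 24 h. BXY_0387700 averaged 1725 ± 340 FPKM in EC12, 2002 ± 259 in EB12, then 733 ± 10.8 in EC24 and 1394 ± 32.8 in EB24 (SD, n = 3). BXY_0387500 averaged 1800 ± 553, 1812 ± 221, 661 ± 22.7 and 1012 ± 77.5 FPKM in the same order. BXY_0580100 averaged 1048 ± 448, 1617 ± 417, 323 ± 18.3 and 495 ± 15.7 FPKM, and its fall was as large with EB as without, with a ratio of 1.05. None of the 332 loci outside the reference annotation met all the conditions, against 242 of the 17704 BXY IDs. How many of those loci lay in the FPKM range is not given here, so nothing is read from their absence. Below 5 FPKM, 15 BXY IDs met the other conditions.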
